A study of Macaca mulatta with 20 samples.

Results

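Interferon-stimulated genes were measured in the blood of rhesus macaques before and after irradiation of the chest. The set holds 50 genes by name, among 15929 gene names with a tested probe on the array. All 50 had a probe, and 45 passed the filter, which required signal well above background on at least 5 of the 20 arrays. The genes were chosen by name as interferon targets, with earlier results of these data known. Each is represented by its probe with the highest mean signal.

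The arrays came from whole blood of male rhesus macaques (Macaca mulatta) of Chinese origin that received 10 Gy of X-rays to the whole thorax and, per the methods, no mitigating agent. Blood was taken 3 days before irradiation (the pre-irradiation group) and on days 2, 5 and 30 after it, and each group holds 5 arrays. No unirradiated group sampled over the same days was analysed here, so time and radiation cannot be told apart. Blood was drawn from 8 animals, the labels do not name the animal of an array, and the methods state that comparisons were paired by animal and that 1 RNA sample was pooled from 2 animals. The replicate number of the labels was taken as the pair. RNA was depleted of globin transcripts and hybridised to Agilent Whole Human Genome arrays, whose probes follow human sequence, so that a mismatch between a probe and the macaque transcript can lower its signal. Each of 5 slides carried 1 array of each group at the same position on every slide, so position and group cannot be told apart.

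Interferons are secreted proteins that cells release when sensors of foreign or misplaced nucleic acid are engaged. Type I interferons bind a receptor found on nearly all cells, and Janus kinases then phosphorylate STAT2, which enters the nucleus together with IRF9. There they switch on a common programme of antiviral genes, which includes the sensors and transcription factors of the pathway itself. In blood this programme is used as a readout of interferon exposure, since interferon transcripts themselves are scarce.

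The first 30 of the 60 bases are given here for 3 probes, because IFI44 was among the widest-ranging members and SAMD9 and TRIM22 had the smallest p-values. All positions are on hg19, as the array files give them, and the files do not annotate exons or untranslated regions. The IFI44 probe lies at chr1:79128479-79128538 on the plus strand, the SAMD9 probe at chr7:92729782-92729841 on the minus strand and the TRIM22 probe at chr11:5731591-5731650 on the plus strand. No letters are capitalised, since macaque mismatches were not analysed here.
IFI44: aaggatgttctaattctttctgctctgaga
SAMD9: caaccagcgatacgtaatcaaaatgtaatt
TRIM22: tgccccttaaaagattgaagaaagagaaac

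A level below is the log2 processed signal of a probe minus the 75th percentile of its array, so that a difference of 1 is a factor of 2. Levels of different genes are not compared, because probes differ in how well they bind, and the levels of a gene are listed in the order of replicates 1 to 5. A change is the difference of levels between groups as fitted by limma over 5 pairs, with its standard error after the ± sign, and a member was called where its p-value lay under 0.005 and its false discovery rate under 10%, adjusted over all 19961 probes tested. The share of spots well above background lay between 50.9% and 67.3% across arrays, and no spot of a member's probe was saturated. Of the 45 member probes, 42 were well above background on all 20 arrays, and the exceptions were OAS1 (14 arrays), CXCL10 (14 arrays) and IFI44L (19 arrays).

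On day 2 the interferon-stimulated genes stood higher than before irradiation on average, but the pairs did not move together, and 0 of 45 members were called. This compares with 0.0551% of all probes called. Of the 45 members, 44 had a positive change, and the median change was 0.79 against -0.02 over all probes. At an unadjusted p under 0.05 in limma, 8 members were higher and 0 lower, where 8.91% of all probes were higher and 5.93% lower. Changes ranged from -0.17 (CXCL10) to 1.62 (ISG15), and the median standard error of a member was 0.50 against 0.19 over all probes. In whole blood, fewer cells of a type and less RNA per cell cannot be told apart.

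The pairs went in different directions. The median member change within the pair was 2.81 in replicate 1, 1.51 in replicate 2, -0.55 in replicate 3, -0.36 in replicate 4 and 0.23 in replicate 5. All 45 members were higher on day 2 in replicates 1 and 2, whereas 9 were higher in replicate 3, 15 in replicate 4 and 33 in replicate 5. In replicate 1, 42 members were higher by over 1 on the log2 scale, where 9.27% of all probes were. In replicate 2 it was 29 members against 3.08% of probes, and in replicate 3 it was 3 members against 9.51% of probes. Replicate 4 had 2 such members against 6.47% of probes, and replicate 5 had 3 against 3.79% of probes. The direction within pairs thus split, with replicates 1 and 2 high, replicates 3 and 4 low and replicate 5 between them.

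**Figure D1:**
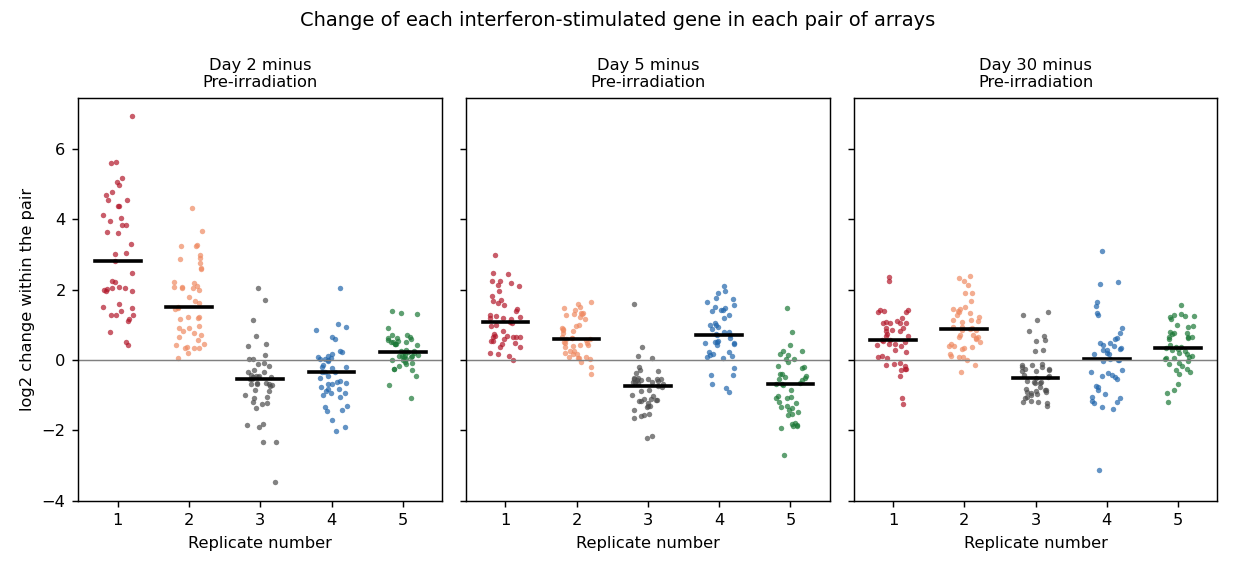
Each point is 1 of the 45 interferon-stimulated genes, and the vertical axis is its log2 change within 1 pair of arrays, for day 2, day 5 and day 30 against pre-irradiation. Black bars are the medians of the pair, which on day 2 run from -0.55 in replicate 3 to 2.81 in replicate 1.

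The array of day 2 replicate 1 held the highest level of all 20 arrays for 40 of the 45 members. Without replicate 1 the median member change on day 2 was 0.23, with 35 members higher and 10 lower, and 5 members had an unadjusted p under 0.05. These 5 were GBP1, SAMD9, SP110, TRIM22 and XAF1. The number was also 5 without replicate 2, and it was 14, 15 and 7 without replicates 3, 4 and 5. The share over all probes at that threshold was not computed with a replicate left out, here or below. These counts therefore cannot be set against all probes. The pre-irradiation arrays also differed among themselves, since replicate 3 was the highest of its group for 39 members and replicate 2 the lowest for 33.

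The median of the members, each centred on its mean over the 20 arrays, gives the level of the programme on each array. Before irradiation it was -0.53, -1.22, 0.97, -0.73 and -0.03 in replicates 1 to 5. On day 2 it was 2.44, 0.44, 0.33, -1.0 and 0.23. On day 5 it was 0.73, -0.60, 0.09, -0.09 and -0.92. On day 30 it was 0.17, -0.29, 0.49, -0.45 and 0.29. The 4 groups overlapped, and the spread between arrays was widest on day 2 (SD 1.24) and narrowest on day 30 (SD 0.40), with 0.83 before irradiation and 0.64 on day 5 (n = 5 each). For 0 members did the 5 day 2 levels lie all above or all below the 5 pre-irradiation levels, and the same held on day 5 and on day 30. Over all probes such separation was found for 1.55% on day 2, 0.611% on day 5 and 2.08% on day 30.

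**Figure D2:**
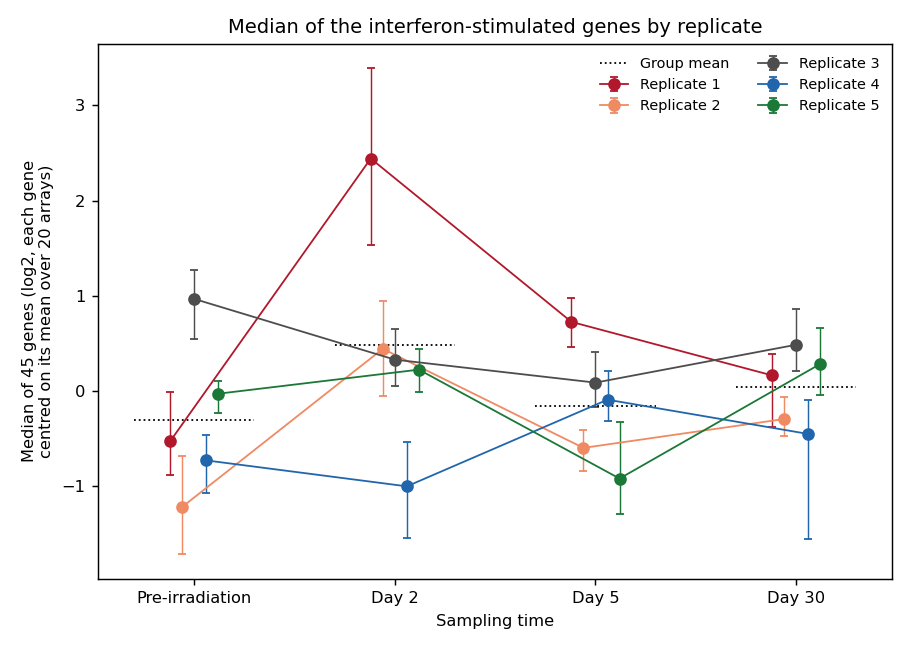
The vertical axis is the median level of the 45 members, each centred on its mean over the 20 arrays (log2), bars span the quartiles of the members, dotted lines are group means, and solid lines join the arrays of 1 replicate number across the 4 groups. The day 2 array of replicate 1 stands at 2.44, and the day 30 arrays lie between -0.45 and 0.49.

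On day 5 the members were near their pre-irradiation level. The median change was 0.12 against 0.02 over all probes, and 32 members had a positive and 13 a negative change. Of all members 0 were called, where the share over all probes was 0%. At an unadjusted p under 0.05 in limma, 1 member (SAMD9) was higher and 0 were lower, where 7.2% and 4.15% of all probes were. With replicates 1 to 5 left out in turn, the number higher was 1, 1, 6, 2 and 7, with no share over all probes computed. The pair medians were 1.07, 0.60, -0.74, 0.71 and -0.68 in replicates 1 to 5. Replicates 3 and 5 were thus below, and replicates 1, 2 and 4 above, their own pre-irradiation arrays.

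On day 30 the median change was 0.32 against 0.01 over all probes, with 35 members positive and 10 negative. Again 0 members were called, where 0.02% of all probes were. At an unadjusted p under 0.05 in limma, 7 members were higher, where 8.58% of all probes were, and 1 was lower, where 8.97% of all probes were. The 7 were SAMD9, TRIM22, SP110, STAT2, XAF1, SAMD9L and GBP1, and the 1 lower was LGALS3BP. Leaving out replicates 1 to 5 in turn gave 6, 2, 10, 12 and 5 higher, again with no share over all probes computed. Pair medians were 0.58, 0.88, -0.53, 0.01 and 0.34, so that replicate 3 was again below its pre-irradiation array. The comparisons of days 2, 5 and 30 share the pre-irradiation arrays, and their values are therefore set side by side only.

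**Figure D3:**
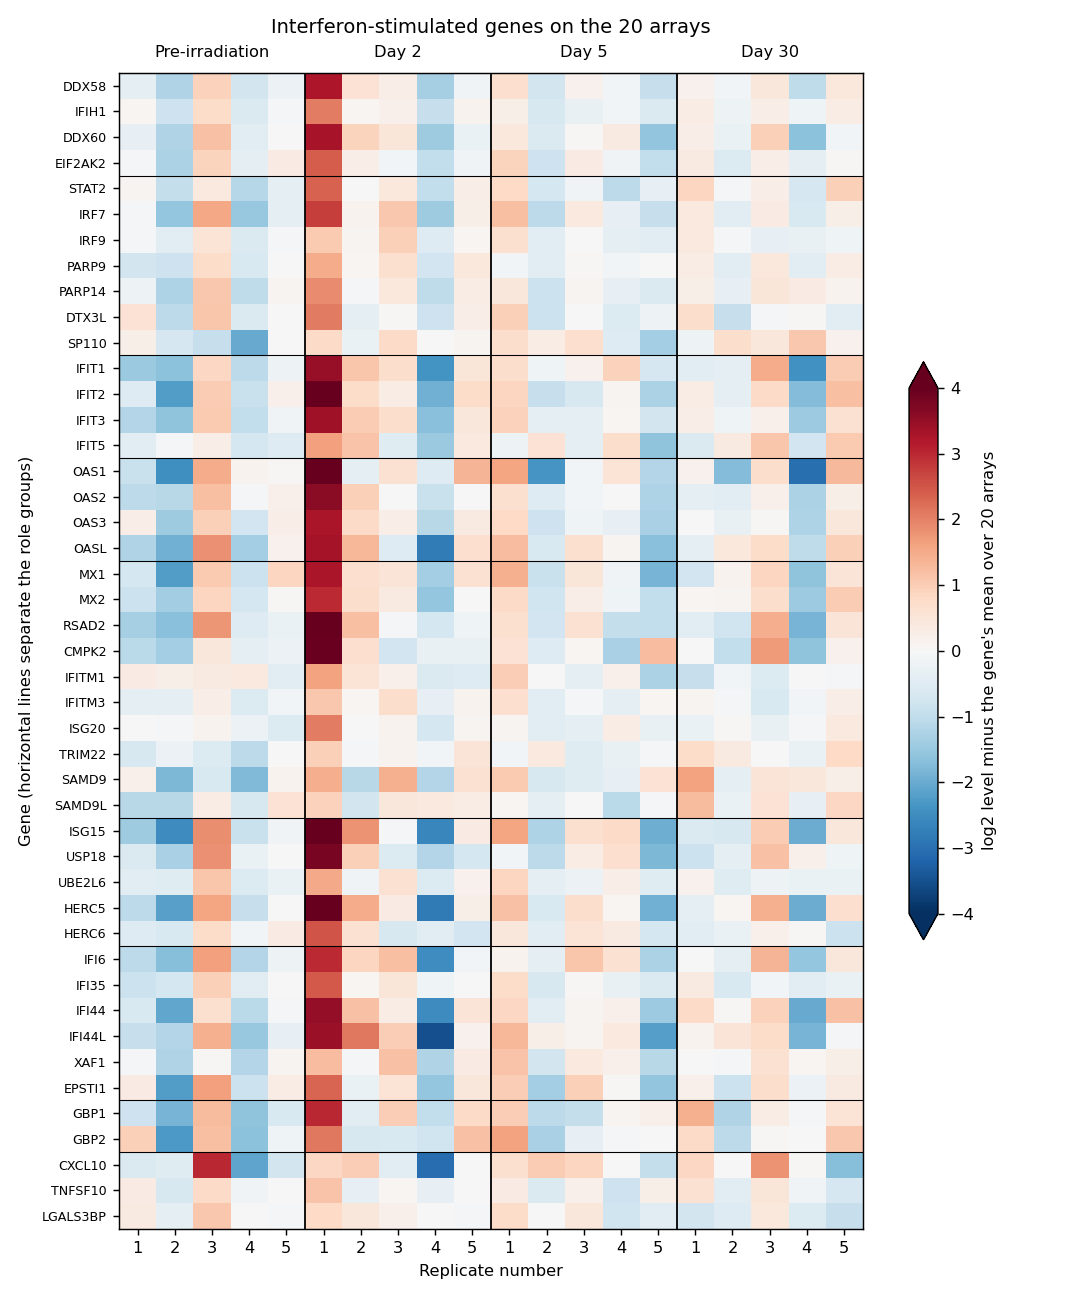
Rows are the 45 members by role, columns are the 20 arrays by group and replicate, and colour is the level centred on the member's mean over the arrays (log2), with the scale ending at 4 in both directions. For 40 rows day 2 replicate 1 holds the highest level, and pre-irradiation replicate 3 is the highest pre-irradiation array for 39 members.

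Counting the members on the same side in every pair gave 6 higher and 0 lower on day 2, where 6.5% of all probes were higher and 7.43% lower in every pair. The 6 were SAMD9, TRIM22, SP110, STAT2, IRF9 and IFITM3. On day 5 it was 1 higher (SAMD9) and 0 lower, where the shares over all probes were 7% and 6.13%. On day 30, 4 were higher in every pair (SAMD9, TRIM22, SAMD9L and XAF1) and 1 was lower (LGALS3BP), where 8.36% and 9.51% of all probes were. An exact sign-flip test over 5 pairs cannot give a two-sided p below 0.0625.

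Among the sensors, DDX58 encodes RIG-I and IFIH1 encodes MDA5, both of which bind double-stranded RNA in the cytoplasm. DDX58 had levels of 2.87, 2.04, 4.18, 2.52 and 3.02 before irradiation, 6.49, 3.83, 3.53, 1.93 and 3.10 on day 2, 3.91, 2.51, 3.42, 3.15 and 2.33 on day 5 and 3.42, 3.14, 3.72, 2.25 and 3.67 on day 30. Replicate 1 was the highest on day 2 by a wide margin, replicate 4 the lowest, and the groups overlapped. IFIH1 had levels of 3.12, 2.22, 3.78, 2.44 and 2.95 before irradiation, 5.08, 3.12, 3.23, 2.10 and 3.19 on day 2, 3.28, 2.39, 2.75, 2.92 and 2.47 on day 5 and 3.34, 2.83, 3.31, 2.85 and 3.32 on day 30. DDX60, a helicase that aids RIG-I, had levels of -0.25, -1.13, 1.23, -0.38 and 0.06 before irradiation, 3.38, 0.96, 0.56, -1.33 and -0.20 on day 2, 0.50, -0.52, 0.12, 0.43 and -1.49 on day 5 and 0.33, -0.20, 1.03, -1.58 and -0.02 on day 30. For both, day 2 replicate 1 was the highest array and pre-irradiation replicate 3 the next. The fitted day 2 changes were 0.85 ± 0.60 for DDX58, 0.44 ± 0.35 for IFIH1 and 0.77 ± 0.65 for DDX60, with limma adjusted p of 0.535, 0.58 and 0.604. EIF2AK2, the RNA-activated kinase PKR, had the smallest change of the 4 at 0.38 ± 0.50. On days 5 and 30 the sensors had median changes of -0.07 and 0.14.

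STAT2 and IRF9 are parts of the transcription factor that carries the type I signal to DNA, and IRF7 drives transcription of the interferon alpha genes. STAT2 had levels of 5.77, 4.71, 6.06, 4.52 and 5.32 before irradiation, 8.02, 5.66, 6.10, 4.68 and 5.94 on day 2, 6.46, 4.97, 5.54, 4.62 and 5.34 on day 5 and 6.52, 5.59, 5.94, 5.00 and 6.62 on day 30. It was higher on day 2 in all 5 pairs by 2.25, 0.96, 0.04, 0.16 and 0.62, and the fitted change was 0.80 ± 0.31 (limma adjusted p = 0.3). Without replicate 1 this was 0.44 ± 0.21. On day 30 STAT2 was higher by 0.66 ± 0.22 (limma adjusted p = 0.206), in 4 of 5 pairs.

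IRF7 had levels of 3.11, 1.63, 4.72, 1.67 and 2.78 before irradiation, 5.92, 3.31, 4.23, 1.74 and 3.40 on day 2, 4.37, 2.13, 3.56, 2.85 and 2.25 on day 5 and 3.55, 2.71, 3.51, 2.57 and 3.39 on day 30. Its day 2 and pre-irradiation levels overlapped, and the fitted change was 0.94 ± 0.44 (limma adjusted p = 0.369). IRF9 varied least of the signalling genes, with levels of 0.61, 0.20, 1.22, 0.09 and 0.61 before irradiation, 1.72, 0.78, 1.60, 0.14 and 0.75 on day 2, 1.29, 0.22, 0.65, 0.32 and 0.21 on day 5 and 1.06, 0.60, 0.35, 0.38 and 0.49 on day 30. On day 2 it was higher in every pair, by 0.45 ± 0.19 in the fit (limma adjusted p = 0.322), and on days 5 and 30 the changes were -0.01 and 0.03. The other IRF9 probe past the filter changed by 0.37, 0.23 and 0.46 on days 2, 5 and 30. The 2 probes thus differed on days 5 and 30. Of the other signalling members, SP110, a nuclear body protein, was higher by 0.96 ± 0.30 on day 2, in 5 of 5 pairs (limma adjusted p = 0.229), and by 1.12 ± 0.45 on day 30 (limma adjusted p = 0.251). PARP9 and its partner, the ubiquitin ligase DTX3L, had day 2 changes of 0.67 ± 0.34 and 0.23 ± 0.33, and PARP14 had 0.56 ± 0.37.

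The IFIT proteins bind viral RNA and block its translation. IFIT1 had levels of 2.62, 2.47, 4.93, 3.07 and 3.90 before irradiation, 7.61, 5.21, 4.82, 1.72 and 4.60 on day 2, 4.81, 3.94, 4.29, 5.04 and 3.43 on day 5 and 3.69, 3.74, 5.60, 1.68 and 5.15 on day 30. IFIT2 had levels of 3.01, 1.29, 4.55, 2.66 and 3.74 before irradiation, 7.78, 4.27, 3.82, 1.62 and 4.28 on day 2, 4.41, 2.61, 2.88, 3.66 and 2.26 on day 5 and 3.83, 3.18, 4.30, 1.80 and 4.74 on day 30. In both genes replicates 1 and 2 were far above their own pre-irradiation arrays on day 2, by 4.99 and 2.75 for IFIT1 and by 4.77 and 2.99 for IFIT2, whereas replicates 3 and 4 were below theirs. IFIT5, the least variable of the family, had levels of -0.91, -0.57, -0.22, -1.20 and -1.02 before irradiation, 1.14, 0.64, -0.97, -1.98 and -0.11 on day 2, -0.70, 0.09, -0.84, 0.23 and -2.11 on day 5 and -1.05, -0.13, 0.61, -1.24 and 0.55 on day 30. Fitted day 2 changes were 1.39 ± 0.81 for IFIT1, 1.31 ± 0.81 for IFIT2, 1.35 ± 0.71 for IFIT3 and 0.53 ± 0.42 for IFIT5, with limma adjusted p from 0.416 to 0.581. The family had median changes of 1.33 on day 2, 0.30 on day 5 and 0.53 on day 30.

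OAS enzymes make short chains of adenylate that activate an RNA-degrading enzyme, and OASL is a relative that lacks this activity and binds RIG-I. OAS1 had levels of -3.78, -5.35, -1.42, -2.76 and -2.86 before irradiation, 1.86, -3.29, -2.28, -3.43 and -1.54 on day 2, -1.31, -5.25, -3.01, -2.34 and -4.08 on day 5 and -2.73, -4.65, -2.20, -5.90 and -1.59 on day 30. It was not well above background on 6 arrays, of which pre-irradiation replicates 1 and 2, day 5 replicates 2 and 5 and day 30 replicates 2 and 4 are the low values. OASL had levels of 0.79, 0.08, 3.82, 0.63 and 2.16 before irradiation, 5.33, 3.32, 1.48, -0.81 and 2.68 on day 2, 3.22, 1.39, 2.64, 2.10 and 0.31 on day 5 and 1.61, 2.43, 2.73, 0.96 and 2.93 on day 30. OAS3 had levels of 1.12, -0.58, 1.82, 0.09 and 1.12 before irradiation, 4.13, 1.61, 1.13, -0.26 and 1.22 on day 2, 1.66, 0.02, 0.69, 0.54 and -0.43 on day 5 and 0.83, 0.56, 0.91, -0.39 and 1.32 on day 30. Day 2 replicate 1 was the highest of the 20 arrays in these genes. Fitted day 2 changes were 1.50 ± 0.85 for OAS1, 0.90 ± 0.80 for OAS2, 0.85 ± 0.54 for OAS3 and 0.90 ± 0.95 for OASL. The family had a median change of 0.90 on day 2, -0.02 on day 5 and -0.11 on day 30.

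The other antiviral effectors act at different steps of infection. MX1, a GTPase that traps viral nucleocapsids, had levels of -1.04, -2.57, 0.71, -1.20 and 0.50 before irradiation, 2.92, 0.33, 0.17, -1.71 and 0.26 on day 2, 1.09, -1.25, 0.13, -0.49 and -2.19 on day 5 and -1.12, -0.19, 0.52, -1.95 and 0.16 on day 30. RSAD2, also called viperin, makes a nucleotide that halts viral polymerases and had levels of -0.79, -1.13, 2.31, 0.01 and 0.26 before irradiation, 4.82, 1.74, 0.45, -0.18 and 0.37 on day 2, 1.18, -0.22, 1.15, -0.42 and -0.45 on day 5 and 0.12, -0.28, 1.98, -1.32 and 1.03 on day 30. Both followed the array pattern of the sensors, with replicate 1 highest on day 2 and fitted day 2 changes of 1.11 ± 0.70 and 1.31 ± 0.94. IFITM3, a membrane protein that blocks fusion of virus with endosomes, had levels of 7.76, 7.75, 8.42, 7.61 and 8.05 before irradiation, 9.24, 8.22, 8.87, 7.84 and 8.29 on day 2, 8.83, 7.71, 8.10, 7.75 and 8.23 on day 5 and 8.27, 8.09, 7.53, 8.04 and 8.43 on day 30. It was higher on day 2 in every pair, by 0.57 ± 0.21 (limma adjusted p = 0.281).

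SAMD9 and TRIM22 are given because their unadjusted p in limma lay under 0.005 in at least 1 comparison, which favours genes whose pairs are alike. On day 2 their standard errors were 0.25 and 0.21, against 0.19 for IRF9 and 0.21 for IFITM3. SAMD9, which restricts poxviruses and slows cell growth, had levels of -0.02, -2.02, -0.83, -1.99 and -0.08 before irradiation, 1.25, -1.32, 1.21, -1.38 and 0.39 on day 2, 0.82, -0.85, -0.71, -0.56 and 0.35 on day 5 and 1.41, -0.56, 0.31, 0.24 and 0.02 on day 30. Every pair was higher on each of the 3 days, and the groups overlapped, since the 5 pre-irradiation levels were themselves spread from -2.02 to -0.02. On day 2 SAMD9 was higher by 1.27, 0.70, 2.04, 0.61 and 0.47 in replicates 1 to 5, and the fitted changes were 1.02 ± 0.25 on day 2 (limma adjusted p = 0.179), 0.79 ± 0.22 on day 5 (adjusted p = 0.321) and 1.27 ± 0.28 on day 30 (adjusted p = 0.139). As a factor the day 30 change is 2.41. Without replicate 1 the SAMD9 change was 0.95 ± 0.29 on day 2 and 1.23 ± 0.33 on day 30, close to the values with it.

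TRIM22, a ubiquitin ligase that limits several viruses, had levels of 1.50, 1.91, 1.59, 1.11 and 2.15 before irradiation, 3.10, 2.11, 2.28, 2.05 and 2.65 on day 2, 2.03, 2.53, 1.65, 1.85 and 2.09 on day 5 and 2.88, 2.50, 2.13, 1.87 and 2.96 on day 30. It was higher in every pair on day 2, by 0.79 ± 0.21 (limma adjusted p = 0.194), and on day 30, by 0.81 ± 0.18 (limma adjusted p = 0.139). On day 5 it was higher in 4 of 5 pairs, by 0.38 ± 0.17. SAMD9L, the neighbour of SAMD9, was higher by 0.66 ± 0.31 on day 2 and by 0.80 ± 0.32 on day 30 (limma adjusted p = 0.247). The remaining effectors, MX2, CMPK2, ISG20 and IFITM1, had day 2 changes of 0.91, 1.18, 0.47 and 0.07.

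**Figure D4:**
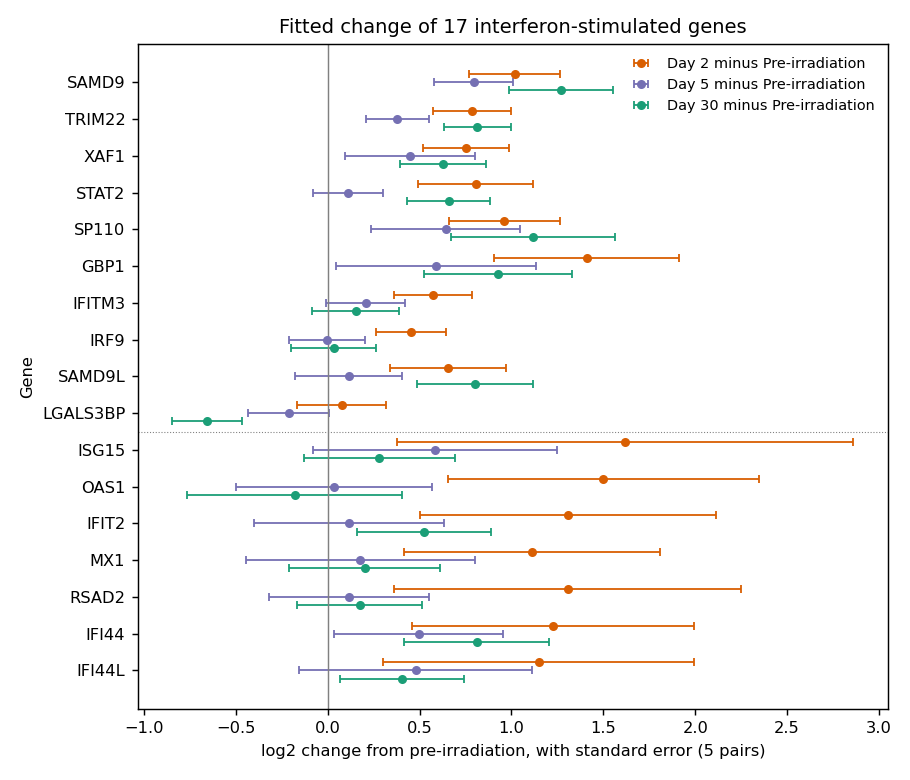
Points are the fitted log2 changes of 17 members on days 2, 5 and 30 against pre-irradiation, and bars are standard errors over 5 pairs. The upper 10 genes are those with an unadjusted p under 0.05 on at least 1 day, with SAMD9 at 1.02 on day 2 and 1.27 on day 30, and the lower 7 are examples of widely used interferon markers with wider bars, such as ISG15 at 1.62 ± 1.24 on day 2.

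ISG15 is a ubiquitin-like protein that is attached to other proteins through UBE2L6 and the ligase HERC5 and removed by USP18. ISG15 had levels of 1.54, 0.43, 4.81, 2.07 and 2.82 before irradiation, 8.47, 4.76, 2.89, 0.35 and 3.28 on day 2, 4.54, 1.70, 3.60, 3.73 and 1.01 on day 5 and 2.38, 2.33, 3.98, 0.97 and 3.40 on day 30. Its range over the 20 arrays was 8.12, the widest of the members. On day 2 the ISG15 level was 122-fold higher than before irradiation in replicate 1 and 20-fold higher in replicate 2, whereas it was 3.78-fold lower in replicate 3 and 3.28-fold lower in replicate 4. The fitted change was 1.62 ± 1.24 (limma adjusted p = 0.569), and 0.29 ± 0.99 without replicate 1. HERC5 had levels of -0.22, -1.35, 2.40, -0.09 and 0.86 before irradiation, 4.95, 2.31, 1.17, -2.0 and 1.08 on day 2, 2.02, 0.23, 1.54, 0.90 and -1.08 on day 5 and 0.46, 0.91, 2.25, -1.15 and 1.50 on day 30. UBE2L6 had levels of 1.12, 1.07, 2.64, 1.0 and 1.28 before irradiation, 3.07, 1.40, 2.15, 1.0 and 1.72 on day 2, 2.40, 1.13, 1.29, 1.80 and 1.06 on day 5 and 1.70, 1.06, 1.33, 1.27 and 1.26 on day 30. Day 2 replicate 1 was the highest array for all of them, and the range over the 20 arrays was 6.95 for HERC5 and 2.07 for UBE2L6. Day 2 changes were 1.18 ± 0.99 for HERC5, 0.45 ± 0.32 for UBE2L6, 0.53 ± 0.87 for USP18 and 0.29 ± 0.60 for HERC6.

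The IFI group holds interferon-inducible genes that are less well understood. IFI44L, often used in blood signatures of interferon, had levels of -0.81, -1.06, 1.53, -1.38 and -0.21 before irradiation, 3.56, 2.22, 1.12, -3.39 and 0.30 on day 2, 1.44, 0.36, 0.23, 0.52 and -2.10 on day 5 and 0.25, 0.63, 0.86, -1.74 and 0.08 on day 30. Its lowest value, in day 2 replicate 4, was not well above background. IFI44 had levels of 2.59, 1.13, 3.86, 2.14 and 3.14 before irradiation, 6.71, 4.37, 3.51, 0.67 and 3.71 on day 2, 4.04, 2.78, 3.33, 3.41 and 1.77 on day 5 and 3.96, 3.26, 4.13, 1.18 and 4.38 on day 30. In both genes the day 2 arrays ran from the lowest to the highest of the 20. IFI35, a partner of NMI, had levels of 0.86, 1.02, 2.65, 1.26 and 1.68 before irradiation, 4.15, 1.79, 2.21, 1.53 and 1.71 on day 2, 2.43, 1.08, 1.76, 1.42 and 1.14 on day 5 and 2.07, 1.09, 1.61, 1.26 and 1.43 on day 30. Day 2 changes were 1.15 ± 0.85 for IFI44L, 1.22 ± 0.77 for IFI44, 0.78 ± 0.49 for IFI35, 0.99 ± 0.72 for IFI6 and 0.47 ± 0.48 for EPSTI1. XAF1, which antagonises an inhibitor of cell death, was higher in 4 of 5 pairs by 0.75 ± 0.23 on day 2 (limma adjusted p = 0.226) and in 5 of 5 by 0.63 ± 0.23 on day 30 (limma adjusted p = 0.231). The other XAF1 probe past the filter changed less, by 0.29 on day 2 and 0.04 on day 30. IFI27 and PLSCR1 were not well above background on any array.

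Guanylate-binding proteins are GTPases that attack vacuoles of intracellular microbes and respond to interferon gamma more than most other members. GBP1 had levels of 1.52, 0.50, 3.64, 0.74 and 1.76 before irradiation, 5.37, 1.94, 3.36, 1.39 and 3.14 on day 2, 3.34, 1.31, 1.42, 2.47 and 2.56 on day 5 and 3.78, 1.15, 2.67, 2.27 and 2.92 on day 30. It was higher on day 2 in 4 of 5 pairs, by 1.41 ± 0.50 (limma adjusted p = 0.267), and by 0.80 ± 0.31 without replicate 1. On day 30 the change was 0.93 ± 0.40 (limma adjusted p = 0.28). GBP2 had levels of 2.84, -0.39, 3.11, 0.25 and 1.74 before irradiation, 4.01, 1.24, 1.30, 1.10 and 3.06 on day 2, 3.51, 0.60, 1.56, 1.81 and 1.88 on day 5 and 2.66, 0.84, 1.95, 1.89 and 2.99 on day 30. Its changes were 0.63 ± 0.46 on day 2, 0.36 ± 0.40 on day 5 and 0.55 ± 0.39 on day 30, none with an unadjusted p under 0.05. GBP5 did not pass the filter. It was well above background on 2 day 2 arrays (-2.03 in replicate 1 and -2.92 in replicate 2), on day 5 replicate 3 (-2.15) and on day 30 replicate 2 (-3.33), and on no pre-irradiation array.

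The 3 secreted and surface products past the filter had median changes of 0.05, -0.18 and -0.09 on days 2, 5 and 30. CXCL10, a chemokine that draws activated T cells, had levels of -3.41, -3.33, 0.18, -4.96 and -3.59 before irradiation, -2.03, -1.85, -3.31, -5.90 and -2.87 on day 2, -2.20, -1.83, -1.98, -2.86 and -3.80 on day 5 and -2.02, -2.82, -1.03, -2.79 and -4.54 on day 30. It was not well above background on 6 arrays, and its highest value of the 20 was in pre-irradiation replicate 3. TNFSF10, the death ligand TRAIL, had levels of 3.30, 2.33, 3.72, 2.82 and 2.96 before irradiation, 4.10, 2.66, 3.05, 2.64 and 2.96 on day 2, 3.30, 2.41, 3.18, 2.15 and 3.20 on day 5 and 3.59, 2.51, 3.46, 2.84 and 2.29 on day 30. LGALS3BP, a secreted protein that binds galectins, had levels of 1.60, 0.85, 2.32, 1.22 and 1.19 before irradiation, 2.02, 1.68, 1.43, 1.24 and 1.19 on day 2, 1.96, 1.23, 1.68, 0.44 and 0.79 on day 5 and 0.50, 0.71, 1.67, 0.69 and 0.32 on day 30. On day 30 LGALS3BP was lower in all 5 pairs, with a change of -0.66 ± 0.19 (limma adjusted p = 0.169), while on day 2 the change was 0.08 ± 0.24. Its day 30 levels were below all pre-irradiation levels in 4 arrays, and replicate 3 was the exception. SIGLEC1, a receptor of monocytes and macrophages, was well above background on day 2 replicate 1 (-1.18) and day 5 replicate 3 (-2.71) only, and LAMP3, a protein of mature dendritic cells, on no array.

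Between the days after irradiation, day 5 was lower than day 2 for 44 of 45 members, with a median change of -0.54 against 0.03 over all probes. Of these 0 were called, where the share over all probes was 0%. At an unadjusted p under 0.05 in limma, 0 were higher and 5 lower (IFI35, OAS1, IRF9, OAS3 and STAT2), where 1.84% and 1.63% of all probes were. The number lower was 1, 4, 5, 29 and 2 when replicates 1 to 5 were left out in turn, and without replicate 1 the median was -0.28. No share over all probes was computed for these or the following leave-out fits. Whether the 29 without replicate 4 are particular to the members was therefore not tested. From day 2 to day 30 the median was -0.47 against 0.01, with 39 members lower and 0 called, where 0.0551% of all probes were. Here 0 members were higher and 3 lower (IFI35, LGALS3BP and OAS1) at an unadjusted p under 0.05, where 6.03% and 6.95% of all probes were. The number lower was 1, 0, 4, 7 and 2 with replicates 1 to 5 left out in turn, and without replicate 1 the median was 0.01. From day 5 to day 30 the median was 0.10 against -0.02, with 0 called against 0% of all probes. SAMD9L and STAT2 were the 2 higher at an unadjusted p under 0.05 in limma and 0 were lower, where 2.53% and 5.77% of all probes were, and the number higher was 4, 1, 2, 3 and 2 with each replicate left out in turn. These comparisons share arrays with those against pre-irradiation and with each other.

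The members moved together from array to array, and the same measure was not computed for other sets of probes. Over the 20 arrays, which include up to 4 arrays of 1 replicate number and share slides, the median correlation between 2 members was 0.71 among 990 pairs of members, and it was 0.56 without day 2 replicate 1. Of these pairs 316 had a correlation over 0.8 and 4 had one below 0, and without day 2 replicate 1 the numbers were 159 and 35. Against the median of the other members, 18 had a correlation of 0.9 or more (9 without day 2 replicate 1), among them DDX58 (0.97), ISG15 (0.96) and IFIT2 (0.95). SP110 (0.35) and TRIM22 (0.43) had the lowest values, followed by SAMD9L (0.52), LGALS3BP (0.53), SAMD9 (0.54) and CXCL10 (0.54). Of the members with an unadjusted p under 0.05 in limma on day 30, SAMD9, TRIM22, LGALS3BP, SAMD9L and SP110 were among these low values. STAT2 (0.86), GBP1 (0.83) and XAF1 (0.80) were not. A gene that follows the differences between pairs has a larger standard error, so this overlap is in part built into the p-values.

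Outside the set, the genes whose level was most like the member median over the 20 arrays were DHX58 (0.96), which encodes the RNA sensor LGP2, PARP12 (0.92) and PLA2G4C (0.90). They were followed by UNC93B1 (0.89), a chaperone of nucleic acid receptors, APOL2 (0.89) and PARP10 (0.89). BAALC (0.89), CMTR1 (0.88), PML (0.88) and IL1RN (0.87) completed the 10. Without day 2 replicate 1 these correlations lay between 0.74 (IL1RN) and 0.92 (DHX58). DHX58 had pair changes on day 2 of 3.40, 1.43, -0.67, -0.40 and -0.07 in replicates 1 to 5, the same order as the member medians except that replicate 5 was below 0.

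Several members lie close together in the rhesus annotation. Of 48 members found there, 22 had another member with at most 2 coding genes between them, among them IFIT2, IFIT3, IFIT1 and IFIT5, and OAS1, OAS3 and OAS2. Genes within the IFIT family and within the OAS family resemble each other in sequence, and signal shared between their probes was not tested. For 12 members more than 1 probe passed the filter. Of 13 such other probes, 10 had a day 2 change of the same sign as the chosen probe, and the exceptions were 1 probe each of OAS2 (-0.01), MX2 (-0.07) and CXCL10 (0.50).

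Of 16 type I and III interferon genes with a probe, IFNL2 and IFNA4 passed the filter, and their day 2 changes were -0.09 ± 0.20 and -0.22 ± 0.16. Genes within the alpha and lambda families are closely similar in sequence, so these 2 values are uncertain as to the gene. IFNG, interferon gamma, did not pass the filter. The 2 chains of its receptor were higher on day 2, IFNGR1 by 1.11 ± 0.28 and IFNGR2 by 0.95 ± 0.23, each in 4 of 5 pairs (limma adjusted p = 0.182 and 0.182). On day 30 they were higher in every pair, by 0.89 ± 0.21 and 0.66 ± 0.22.

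Of 4 type I and III receptor chains measured, 1 was higher at an unadjusted p under 0.05 on day 2, IFNAR2 by 0.48 ± 0.16. On day 30 it was IFNLR1, a chain of the type III receptor, by 1.38 ± 0.24 in 5 of 5 pairs (limma adjusted p = 0.127), with signal well above background on 12 arrays. Over all probes 8.91% were higher and 5.93% lower at that threshold on day 2, and 8.58% and 8.97% on day 30. Among the kinases JAK2 was higher on day 2 by 0.79 ± 0.26, and among 6 IRF factors 1 was, IRF1 by 0.47 ± 0.17. Of 13 genes of nucleic acid sensing, 4 were higher on day 2 at an unadjusted p under 0.05 and 2 lower. The 4 were the adaptors MYD88 (1.01 ± 0.24) and TICAM1 (0.63 ± 0.17), the DNA sensor AIM2 (0.52 ± 0.19) and TMEM173 (0.40 ± 0.14), which encodes STING. The lower ones were MAVS (-0.48 ± 0.20), the adaptor of RIG-I, and TLR9 (-0.42 ± 0.17). At the same threshold, 2 of the 13 were higher and 2 lower on day 5, where 7.2% and 4.15% of all probes were. On day 30, 5 were higher and 2 lower. The median change of the 13 was 0.38 on day 2, 0.10 on day 5 and 0.46 on day 30. Of 8 negative regulators, SOCS3 (1.02 ± 0.28) and NLRX1 (1.01 ± 0.43) were higher on day 2. No gene of these lists was called.

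A further list of interferon-responsive genes that are not members held 28 past the filter. On day 2, 11 were higher at an unadjusted p under 0.05 and 0 lower, with a median change of 0.38, where 8.91% and 5.93% of all probes were higher and lower, and 0 were called. They included IDO1 (1.12 ± 0.29), which breaks down tryptophan, RTP4 (0.93 ± 0.27), TRIM5 (0.88 ± 0.26), which restricts retroviruses, and genes of antigen presentation, TAP1 (0.40 ± 0.17), PSMB9 (0.65 ± 0.26) and B2M (0.54 ± 0.19). On day 5, 0 were higher and 1 lower, with a median of 0.09, where 7.2% and 4.15% of all probes were. On day 30, 3 were higher and 1 lower, with a median of 0.17, where 8.58% and 8.97% of all probes were.

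Markers of blood cell types differed on the same days. On day 2 all 7 platelet markers past the filter were higher at an unadjusted p under 0.05, as were 6 of 9 monocyte markers and 4 of 7 neutrophil markers, while 8 of 9 NK cell markers, 5 of 10 T cell markers and 5 of 6 B cell markers were lower, where 8.91% and 5.93% of all probes were higher and lower. Of these 1, an NK cell marker, was called. Summed levels of the monocyte markers ranged from 7.10 to 8.62 before irradiation and from 8.08 to 8.92 on day 2, and those of the NK cell markers from 4.59 to 5.97 and from 3.92 to 4.48. Changes of the marker median within the pair on day 2 were 1.10, 0.58, 0.28, 1.13 and 0.48 for monocyte markers in replicates 1 to 5. For neutrophil markers they were 1.05, 0.18, 1.55, 1.62 and 0.14, and for platelet markers 2.00, 0.38, 1.73, 1.54 and 1.57. NK cell markers had -0.83, -0.41, -1.52, -1.19 and -1.92, and T cell markers -0.74, -0.09, -0.71, -0.43 and -0.28. B cell markers had -0.15, -0.43, -0.89, -0.50 and 0.07. Of the markers of plasmacytoid dendritic cells, the main producers of type I interferon, CLEC4C, IL3RA and NRP1 did not pass the filter, and of the 5 that did 2 were higher and 1 lower on day 2. The summed level of those markers was 6.42 to 6.99 before irradiation, 5.73 to 6.73 on day 2, 5.61 to 6.97 on day 5 and 6.79 to 7.52 on day 30. A sum weighs the probe with the highest signal most. The changes of the marker median in replicates 1 to 5 were -0.25, -0.48, -0.10, -0.04 and 0.35 on day 2. On day 5 they were 0.19, -0.37, -0.42, -0.11 and -0.33, and on day 30 they were 0.24, 0.02, 0.04, -0.42 and 0.09. On day 30, 6 of 9 monocyte markers were higher and 3 of 10 T cell markers lower, where 8.58% and 8.97% of all probes were, and their summed levels were 8.10 to 9.0 and 7.43 to 8.45. Also higher on day 30 were 4 of 7 neutrophil and 3 of 9 NK cell markers. Lower were 3 of 6 B cell, 2 of 7 erythroid and 1 of 7 platelet markers. Of the erythroid markers, 0 were higher and 0 lower on day 2. The part of cell composition in the member changes was not tested.

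Within slides, where the arrays of day 2 and of pre-irradiation always had different replicate numbers, the median member change from pre-irradiation to day 2 was 1.31, -0.40, 3.51, -0.90 and 0.31 on slides 1 to 5, so that the direction differed between slides as well. With the slide as the only block in place of the replicate number, 0 members were called on any day and 2 were higher at an unadjusted p under 0.05 in limma on day 2. For that fit the share of all probes under 0.05 was not computed. With slide and replicate number both as blocks, which left 1 residual degree of freedom, 18 members were called on day 2, where 1382 of 19961 probes were, and 5 on day 5, where 1874 of 19961 probes were.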

How the data were processed

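RNA from 20 blood samples was hybridised to 1-colour arrays. The authors deposited the scanner output of each array, of which the processed signal intensity (background-subtracted and spatially detrended, not normalised between arrays) was used, with the mean and background intensities for an alternative. The submitters' processing notes name Agilent Feature Extraction 10.7 and the headers of the array files 12.0.2.2. The authors also deposited a table of log2 values for 5884 probes, which differ from the log2 processed signal by a single constant within each array for at least 99.47% of values (tolerance 0.001), and which served as an alternative.

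Control and outlier spots were left out, log2 signals of a probe's spots were averaged, and each array was scaled by subtracting its 75th percentile (log2). Of 34127 probes, the 19961 well above background on at least 5 arrays, with a value in at least 4 of 5 pairs, were tested in limma 3.58.1 (R 4.3.3), each comparison on its own 10 arrays with the replicate number as a block, because the methods state pairing by animal. Deviations of same-numbered arrays from their group means correlated at 0.19 to 0.51 between day 2 and pre-irradiation, 0.18 to 0.70 on day 5 and 0.04 to 0.45 on day 30 over 15322 probes. In 3 of 5 replicates on day 2, 1 on day 5 and 3 on day 30, an array correlated more with another number than with its own. Labels give no separate account of the animals, so that p-values rest on the spread between these samples. Tables and figures were made in Python 3.11.15 with pandas 2.3.3 and matplotlib 3.10.9, and the fit was tested on simulated data.

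The members and lists were chosen with earlier results of these data known. Values in every array are given for the 2 most and the 1 least variable members of each role group over the 20 arrays and for members called or with an unadjusted p under 0.005, which made 28. The number of arrays limits the precision. Alternatives were quantile normalisation, median scaling, normexp background correction (offset 50), other filters, the deposited log2 values, the mean of a gene's probes, outlier spots kept, other blocks, a paired test run probe by probe and leaving out each replicate. The slide as the only block was added after seeing the data. Promoter motifs were not analysed here.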

Additional observations from a re-analysis of the deposited data

Results flagged for a closer look

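In 4 of 116 groups of 5 arrays (28 named members and the member median, in 4 groups each), 1 array lay apart from the others by more than Dixon's critical ratio of 0.71, where about 5.8 are expected by chance. UBE2L6 stood at 2.64 in pre-irradiation replicate 3, while the other arrays of its group lay between 1.0 and 1.28. IFI35 stood at 4.15 in day 2 replicate 1, against 1.53 to 2.21. TNFSF10 stood at 4.10 in day 2 replicate 1, against 2.64 to 3.05. LGALS3BP stood at 1.67 in day 30 replicate 3, against 0.32 to 0.71.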

How the results depend on the processing

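The median member change kept its sign on day 2 under every alternative run, between 0.38 and 0.82, and lay between 0.23 and 1.09 when 1 replicate was left out, lowest without replicate 1. On day 5 these ranges were -0.01 to 0.13 and -0.09 to 0.39, and on day 30 0.17 to 0.38 and 0.11 to 0.48. From day 2 to day 5 they were -0.69 to -0.16 and -0.93 to -0.28, from day 2 to day 30 -0.49 to -0.19 and -0.75 to 0.01, and from day 5 to day 30 0.05 to 0.28 and -0.14 to 0.35. The number of members called was 0 in all 6 comparisons whichever replicate was left out. Without replicate 2, 681 of 19961 probes were called on day 2 and 67 from day 2 to day 30. In every other such fit at most 3 probes were called.

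Other settings called a few members. On day 2 the deposited log2 values called 1 (SAMD9) and 328 of 5653 probes, and a fit of all 20 arrays 1 (TRIM22) and 368 of 19961 probes. On day 30 normexp called 4 (TRIM22, LGALS3BP, SAMD9 and SP110) and 845 of 19961 probes, and a filter of signal well above background on all arrays 2 (TRIM22 and SAMD9) and 645 of 15322 probes. There the deposited log2 values called 1 (SAMD9) and 338 of 5653 probes, and the fit of all 20 arrays 2 (TRIM22 and SAMD9) and 238 of 19961 probes. With both slide and replicate block, 18 were called on day 2 (1382 of 19961 probes) and 5 on day 5 (1874 of 19961 probes), on 1 residual degree of freedom, and that fit was not possible for day 30 against pre-irradiation or day 5 against day 2, where 0 remain. The number of members higher in every pair on day 2 was 2 under normexp and 6 to 12 with 1 replicate left out, highest without replicate 3. With a replicate left out, only 4 pairs have to agree, so these counts are not like those over 5 pairs. The share over all probes was not computed for these settings. The cause of these differences was not tested.

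Without the replicate block, 0 members were called, and the numbers higher at an unadjusted p under 0.05 in limma were 2, 0 and 3 on days 2, 5 and 30, in place of 8, 1 and 7 with the pairing. Shares over all probes at that threshold were not computed without the block. Median scaling moved the median of all probes to -0.11 on day 5, and normexp to 0.11 on day 2 and 0.12 on day 30. Promoter motifs were not run. Dim probes (OAS1, CXCL10 and IFI44L) and 5 pairs limit what could be detected.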
